A study of Mus musculus with 43 samples.

Results

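The retinas compared came from mice with laser-induced choroidal neovascularization (CNV) that had received no short-chain fatty acids (SCFA), at 14 against 7 days post-laser (dpl). Of the 43 libraries in the series, 9 entered the comparison, all of them untreated controls among the first 31 data columns of the deposited count table. The 14 dpl group held male replicates 1, 2 and 3 and female replicate 1, and the 7 dpl group held male replicates 1, 2 and 3 and female replicates 1 and 3. They were chosen by day, treatment and place in the table, with sex as a covariate. A further 7 dpl library, labelled female control replicate 2, was left out because it holds Y-linked transcripts.

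The study lasered C57BL/6J mice of both sexes at 9 weeks of age and sequenced retinal RNA at 3, 7 and 14 dpl. The control group had the lesion alone, while an SCFA group also drank acetate, propionate and butyrate from before the lesion until collection. Each library is a pool of 2 retinas from 2 animals of one group. Every retina here was lasered, and the 14 dpl animals were also older by the same interval, so time after laser and age cannot be told apart.

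In this model a laser burn breaks Bruch's membrane, the sheet between the retinal pigment epithelium and the choroid, and choroidal vessels grow through the gap. Microglia and blood-borne macrophages gather at the lesion, complement and interferon-induced genes are switched on, and Müller glia, the radial glia of the retina, enter gliosis with a rise of the filament protein GFAP. Injured photoreceptors signal to Müller glia through endothelin 2, the product of Edn2.

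The counts summed to 16148737 to 17135502 per library at 14 dpl and 14826957 to 19483849 at 7 dpl. Expression is given as CPM, the count scaled to a common library size with TMM factors. Transcripts of the mitochondrial genome took 4.71 to 8.17% of counts at 14 dpl and 5.59 to 9.05% at 7 dpl. Male replicates 2 and 3 at 7 dpl stood apart through myelin transcripts, which oligodendrocytes make and which the mouse retina itself lacks. Mbp, myelin basic protein, measured 151 and 508 CPM there, against 15.2 to 24.1 CPM in the other 7 libraries. Values without these libraries are given beside the genes that passed and beside some of the gene lists. Male replicate 1 is then the only 7 dpl male, beside female replicates 1 and 3. The left-out library labelled female held 308 counts of Ddx3y and 284 of Eif2s3y, both Y-linked genes at 0 in the 21 other female libraries.

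Few genes differed between the days past the test. Of 17105 genes tested with edgeR's quasi-likelihood test, 13 passed an adjusted p under 0.1, which is 0.076% of the genes. Among them 5 were higher at 14 dpl (0.0292%) and 8 lower (0.0468%). With a log2 fold change beyond 1 in either direction as well, 7 genes counted as differentially expressed genes (DEGs; 0.0409%), 1 higher (0.00585%) and 6 lower (0.0351%). An unadjusted p under 0.05 was reached by 1945 genes (11.4%), 899 of them higher (5.26%) and 1046 lower (6.12%). The count of 13 was unsteady: leaving out 1 library at a time gave 1 to 145 genes, and 0 passed without sex in the model, where 1440 had an unadjusted p under 0.05. The median log2 fold change of all genes was 0.0002, as TMM scaling centres the fold changes. By direction alone, at any p, 49.96% of the genes were lower at 14 dpl. As each replicate is a pool, the p-values measure the spread between pools, and in whole retina fewer cells of a type and less RNA per cell cannot be told apart.

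Library values below follow one order, male replicates 1, 2 and 3 and then the female libraries. Dio2, the type 2 deiodinase that turns thyroxine into active triiodothyronine, had the smallest p of all genes and lies at chr12:90724552-90738438 on the minus strand of mm10. Its 14 dpl libraries held 81.1, 67.8, 77.7 and 67.3 CPM, and its 7 dpl libraries 48.8, 44.5, 50.9, 37.1 and 31.6 CPM. All 14 dpl libraries lay above all 7 dpl ones. The mean rose from 42.6 ± 8.12 CPM (SD, n = 5) to 73.5 ± 6.96 CPM (SD, n = 4). This is a log2 fold change of 0.75 (SE 0.09), 1.68-fold, with an adjusted p of 0.00752. It was among the 3 genes that passed without the 2 myelin-bearing libraries, with a log2 fold change of 0.79 and an adjusted p of 0.0834.

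Klf4, a zinc-finger transcription factor that counts among the immediate early genes, was the DEG that rose (chr4:55527143-55532466, minus strand). It measured 11.9, 12.5, 7.92 and 7.13 CPM at 14 dpl against 5.98, 4.22, 4.33, 4.09 and 2.64 CPM at 7 dpl. The groups did not overlap, and the female library was the lowest at 14 dpl. Its log2 fold change was 1.13 (SE 0.18), 2.18-fold, with an adjusted p of 0.0682. Without the myelin-bearing libraries the log2 fold change was 0.95 and the adjusted p 0.472.

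The other named genes to rise encode ion channels. Kcnd2 (chr6:21215503-21729805, plus strand), the pore of an A-type potassium channel that damps dendritic excitation, held 11.2, 13.2, 9.96 and 11.1 CPM at 14 dpl and 6.42, 5.94, 5.95, 8.23 and 7.37 CPM at 7 dpl. Its libraries did not overlap between the days, and the log2 fold change was 0.78 (SE 0.14), with an adjusted p of 0.0682. Scn1a (chr2:66270778-66440840, minus strand), a voltage-gated sodium channel of neuronal axons, held 46.5, 41.9, 41.7 and 59.8 CPM at 14 dpl and 33.5, 32.3, 29.5, 44.9 and 47.0 CPM at 7 dpl. Here the groups overlapped, because the females were above the males on both days, and the sex-adjusted log2 fold change was 0.43 (SE 0.08), with an adjusted p of 0.0961. The fifth gene to rise, ENSMUSG00000043498, has no name in the annotation used and was 1.78-fold higher, at 9.32 to 10.003 CPM against 4.54 to 6.49 CPM. The adjusted p without the myelin-bearing libraries was 0.560 for Kcnd2, 0.570 for Scn1a and 0.472 for ENSMUSG00000043498.

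Of the genes past an adjusted p under 0.1 outside the myelin list, Edn2, the injury-induced endothelin of photoreceptors, had the steepest drop. The gene lies at chr4:120161206-120167360 on the plus strand. It measured 11.2, 12.03, 12.8 and 15.3 CPM at 14 dpl and 75.3, 21.1, 41.1, 22.3 and 43.3 CPM at 7 dpl. All 14 dpl libraries lay close together below all 7 dpl ones, which spread widely, with male replicate 1 highest. The mean fell from 40.6 ± 21.9 CPM (SD, n = 5) to 12.8 ± 1.76 CPM (SD, n = 4). This is a log2 fold change of -1.67 (SE 0.30), 3.19-fold lower, with an adjusted p of 0.0682. Without the myelin-bearing libraries it was -1.97 with an adjusted p of 0.0293. That fit kept male replicate 1, the highest library at 75.3 CPM, as its only 7 dpl male. The males removed held 21.1 and 41.1 CPM, so the larger drop cannot be separated from that library. With no library removed, a robust fit gave an adjusted p of 0.313 at a log2 fold change of -1.67. Edn2 did not pass in 10 of 22 alternatives, though its fold change stayed between -1.97 and -1.28.

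Immune genes fell as well. Lyz2 (chr10:117277331-117282321, minus strand), the lysozyme of macrophages and other myeloid cells, held 7.10, 7.55, 10.02 and 7.25 CPM at 14 dpl and 12.7, 18.8, 21.1, 15.7 and 11.8 CPM at 7 dpl. The days did not overlap, and the log2 fold change was -1.04 (SE 0.16), 2.06-fold lower, with an adjusted p of 0.0682. B2m (chr2:122147686-122153083, plus strand), the light chain shared by MHC class I molecules, held 51.4, 61.9, 57.9 and 60.0 CPM at 14 dpl and 122, 107, 102, 76.0 and 61.8 CPM at 7 dpl. Its 14 dpl libraries were alike, while at 7 dpl the males were above the females and female replicate 3 reached into the 14 dpl range. Its log2 fold change was -0.72 (SE 0.12), 1.64-fold lower, with an adjusted p of 0.0682. Both adjusted p-values rose without the myelin-bearing libraries, to 0.515 for Lyz2 at a log2 fold change of -0.76 and to 0.472 for B2m at -0.68. The reads of Lyz2 and its close paralog Lyz1 may be shared.

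A matrix gene and a peptide gene completed the named genes that fell. Col1a1 (chr11:94936224-94953042, plus strand), a chain of fibrillar collagen I, held 0.561, 0.737, 0.583 and 1.0003 CPM at 14 dpl and 1.83, 1.31, 2.11, 2.48 and 3.18 CPM at 7 dpl. It is a low transcript in these retinas, with no overlap between the days and a log2 fold change of -1.48 (SE 0.28), 2.79-fold lower, with an adjusted p of 0.0983. Insl5 (chr4:103017872-103026842, minus strand), a relaxin-family peptide hormone, held 3.24, 4.60, 5.42 and 11.5 CPM at 14 dpl and 15.1, 12.9, 10.7, 13.7 and 19.4 CPM at 7 dpl. The female library at 14 dpl reached the 7 dpl range, and the log2 fold change was -1.18 (SE 0.20), with an adjusted p of 0.0682. Gm13029 fell by 0.80 on the log2 scale (adjusted p 0.0915), from 16.3 ± 3.17 CPM (SD, n = 5) to 9.10 ± 1.89 CPM (SD, n = 4). It is annotated antisense inside the gene Igsf21, and as the strandedness of the counting is not given, reads of the pair cannot be told apart. Leaving those libraries out put the adjusted p at 0.472 for Col1a1 and Insl5 and 0.445 for Gm13029.

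The 2 remaining genes that passed are oligodendrocyte genes and follow the myelin-bearing libraries. Mobp, a myelin protein, measured 40.6 and 148 CPM in male replicates 2 and 3 at 7 dpl and 0.0583 to 0.498 CPM in the other 7 libraries. Bcas1, a marker of young oligodendrocytes, measured 6.85 and 23.7 CPM there and 0 to 0.443 CPM elsewhere. Of 30 myelin genes listed 24 were tested, 12 were lower at an unadjusted p under 0.05 and the median log2 fold change was -1.10. Without those libraries 16 were tested, 0 were lower at that p and the median was -0.05. In the same fit 3 of 16845 genes passed (0.0178%), with Dio2 higher and Edn2 and Ecel1 lower, and 1233 genes had an unadjusted p under 0.05 (7.32%).

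**Figure D1:**
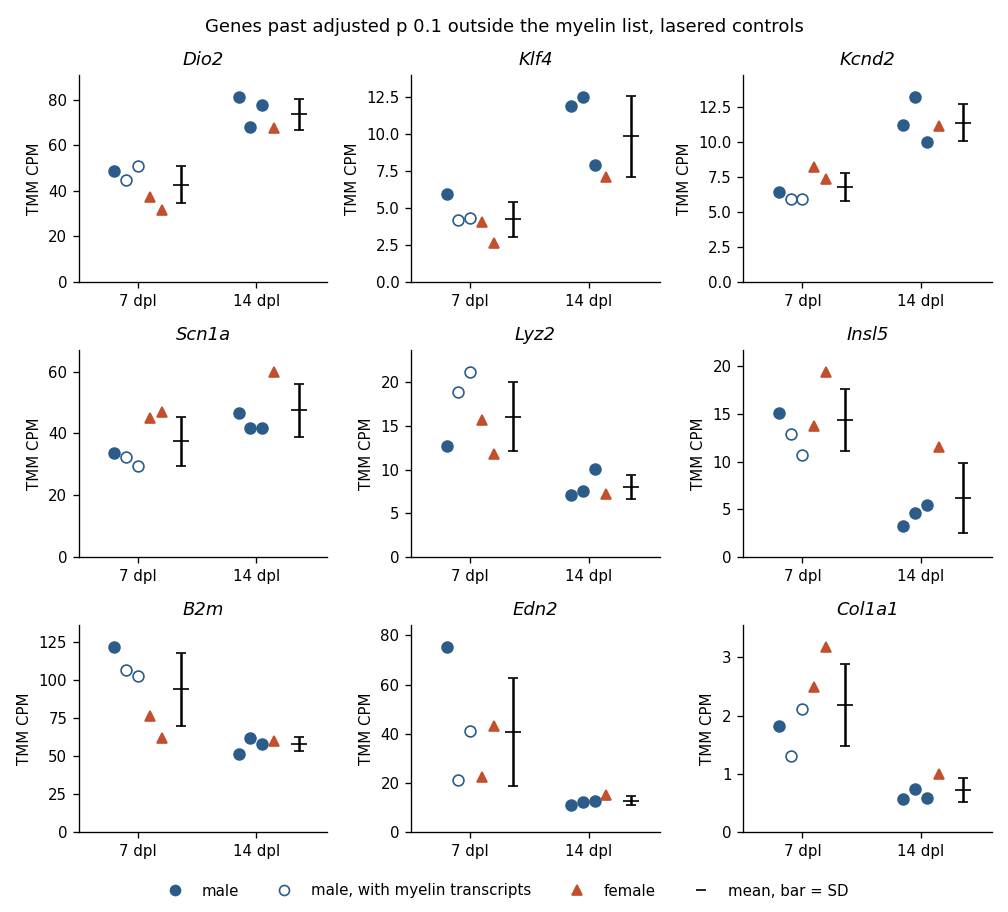
Expression in TMM-scaled CPM (y axis of each panel, starting at 0) at 7 and 14 dpl (x axis). Shown are the genes outside the myelin list that passed an adjusted p under 0.1, except Gm13029 and ENSMUSG00000043498. Circles mark male libraries, open where they carry myelin transcripts, and triangles female ones, with the mean and SD of each day beside them. Dio2 lies at 67.3 to 81.1 CPM at 14 dpl against 31.6 to 50.9 CPM at 7 dpl, while Edn2 lies at 11.2 to 15.3 against 21.1 to 75.3 CPM.

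The genes described next did not pass and were taken in order of p from those whose days do not overlap, so genes of like p with overlap were passed over. Over all genes tested, 210 did not overlap with 14 dpl higher (1.23%) and 244 with 14 dpl lower (1.43%). Prmt8, an arginine methyltransferase of neurons, held 19.8, 18.8, 21.8 and 16.9 CPM at 14 dpl and 12.01, 13.2, 14.8, 13.2 and 13.4 CPM at 7 dpl. The log2 difference was 0.52 (adjusted p 0.136). Gucy1b1, a subunit of the nitric oxide receptor guanylate cyclase, held 70.4 to 94.0 CPM at 14 dpl and 56.9 to 67.9 CPM at 7 dpl. Robo2, the Slit receptor of growing axons, held 49.5 to 57.6 CPM and 39.2 to 47.7 CPM, and for both genes the log2 difference was 0.36, with adjusted p-values of 0.1502 and 0.155. The others on this side were Plppr4, Nap1l2, Pcdh10, Dnaja1, Reps2 and Dzank1, with log2 differences of 0.35 to 0.51.

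Genes lower at 14 dpl were taken by the same rule. Fcer1g, a signalling chain of Fc receptors, held 3.05, 3.25, 4.08 and 3.63 CPM at 14 dpl and 6.03, 6.74, 6.87, 5.07 and 5.95 CPM at 7 dpl. C1qb, a chain of the first complement component, held 14.7, 15.7, 15.2 and 17.8 CPM and 30.6, 22.3, 30.9, 19.6 and 21.5 CPM. Their log2 differences were -0.82 (adjusted p 0.117) and -0.67 (adjusted p 0.133). Neat1, the long non-coding RNA that builds nuclear paraspeckles, held 15.6 to 33.8 CPM at 14 dpl and 34.5 to 54.0 CPM at 7 dpl. Rab32, a small GTPase of lysosome-related organelles, held 0.623 to 1.06 CPM and 1.31 to 2.27 CPM. Both were lower in every 14 dpl library, with log2 differences of -0.77 and -1.31. Krt6b, a keratin of stressed surface epithelium, held 0.0623 to 0.491 CPM at 14 dpl and 0.703 to 2.97 CPM at 7 dpl, near the level of a few counts. Krt80, Abhd14a, Olig3 and Slc38a8 were the others.

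Interferon-response genes lay lower at 14 dpl as a list, mostly in the males, though no member passed. Interferons act through a complex of transcription factors that binds the interferon-stimulated response element in the promoters of target genes. To show the element in the genes described next, 300 bases around the start of 4 of them are printed from RefSeq on GRCm38.p6, from 250 bases before to 50 after the start, in the direction of transcription. Capitals mark matches, on either strand, to the element's core, GAAA and GAAA with any 2 bases between them, and matches may overlap.
Isg15, chr4:156200769-156201068, minus strand, with 3 matches: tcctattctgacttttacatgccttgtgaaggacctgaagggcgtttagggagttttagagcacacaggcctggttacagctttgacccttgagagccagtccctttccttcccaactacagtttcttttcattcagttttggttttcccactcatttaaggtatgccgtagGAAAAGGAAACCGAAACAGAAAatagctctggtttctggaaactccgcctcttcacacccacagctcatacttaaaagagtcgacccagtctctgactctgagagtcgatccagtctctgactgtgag
Ifit1, chr19:34640639-34640938, plus strand, with 2 matches: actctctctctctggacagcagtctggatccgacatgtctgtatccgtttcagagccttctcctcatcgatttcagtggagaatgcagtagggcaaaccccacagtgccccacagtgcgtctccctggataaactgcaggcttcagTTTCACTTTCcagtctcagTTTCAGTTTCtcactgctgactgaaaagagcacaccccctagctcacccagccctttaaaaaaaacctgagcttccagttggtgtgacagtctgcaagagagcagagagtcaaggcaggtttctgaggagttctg
Ifitm3, chr7:141010695-141010994, minus strand, with 2 matches: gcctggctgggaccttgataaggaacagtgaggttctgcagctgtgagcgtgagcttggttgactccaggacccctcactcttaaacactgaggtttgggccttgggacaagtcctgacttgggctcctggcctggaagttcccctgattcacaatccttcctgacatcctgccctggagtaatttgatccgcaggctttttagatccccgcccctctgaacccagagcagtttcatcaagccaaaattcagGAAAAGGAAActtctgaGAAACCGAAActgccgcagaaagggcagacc
Bst2, chr8:71537423-71537722, minus strand, with 2 matches: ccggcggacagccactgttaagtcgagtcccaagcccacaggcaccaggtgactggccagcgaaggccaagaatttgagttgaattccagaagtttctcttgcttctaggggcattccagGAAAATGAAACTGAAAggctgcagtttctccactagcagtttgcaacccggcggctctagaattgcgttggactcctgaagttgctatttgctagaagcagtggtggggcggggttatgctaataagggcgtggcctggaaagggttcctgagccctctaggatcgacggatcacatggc
These letters occur in 3.44% of 32851 promoter windows of that length and in 3.99% of 27025 genes. Of the 24 interferon genes 17 had a window and 11 of these held a match (64.7%). The motif was chosen after the expression values were seen, and a match describes the letters only.

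All 24 interferon genes were tested. Each was lower at 14 dpl, 18 at an unadjusted p under 0.05 and 0 at an adjusted p under 0.1, with a median log2 fold change of -0.71 against 0.0002 over all genes. The list's mean log2 CPM was 2.61 to 2.78 in the 14 dpl males and 3.02 to 3.70 in the 7 dpl males. The 14 dpl female stood at 2.83, just below the 2.85 and 2.97 of the 7 dpl females. Isg15, a ubiquitin-like protein, held 3.43, 3.99, 2.51 and 3.88 CPM at 14 dpl and 10.2, 7.88, 7.95, 3.62 and 5.07 CPM at 7 dpl. Ifit1, which binds foreign RNA, held 4.30, 5.52, 4.78 and 8.003 CPM and 21.5, 6.79, 13.5, 6.47 and 8.11 CPM. Male replicate 1 was the highest 7 dpl library in both. The days overlapped through female replicate 1 in Isg15 and through female replicate 1 and male replicate 2 in Ifit1.

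The membrane antiviral proteins behaved alike. Ifitm3, which blocks viral entry, held 13.4, 15.8, 17.1 and 22.0 CPM at 14 dpl and 43.5, 32.5, 32.7, 27.2 and 20.6 CPM at 7 dpl. Bst2, which tethers budding virus, held 8.47, 12.1, 8.45 and 12.5 CPM and 31.2, 19.1, 22.6, 14.4 and 11.9 CPM. Their log2 differences were -0.88 (adjusted p 0.135) and -0.94 (adjusted p 0.165), and male replicate 1 at 7 dpl was the highest library in each. Rtp4, a receptor chaperone, was the 1 member without overlap, at 1.105 to 1.94 CPM against 2.02 to 6.58 CPM. The transcription factors of the pathway differed less, with log2 differences of -0.27 for Stat2, -0.42 for Irf9 and -0.30 for Irf7. At the low end Ifit2 held 9.09 to 12.1 CPM at 14 dpl and 8.73 to 13.2 CPM at 7 dpl, a log2 difference of -0.06. With the myelin-bearing libraries left out 23 members were tested and all were lower, with a median of -0.77. Of these 17 had an unadjusted p under 0.05, against 4.5% of all genes lower at that p. That fit kept male replicate 1, the highest library of the list at a mean log2 CPM of 3.70, as its only 7 dpl male. Leaving out male replicate 1 instead gave a median of -0.44.

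**Figure D2:**
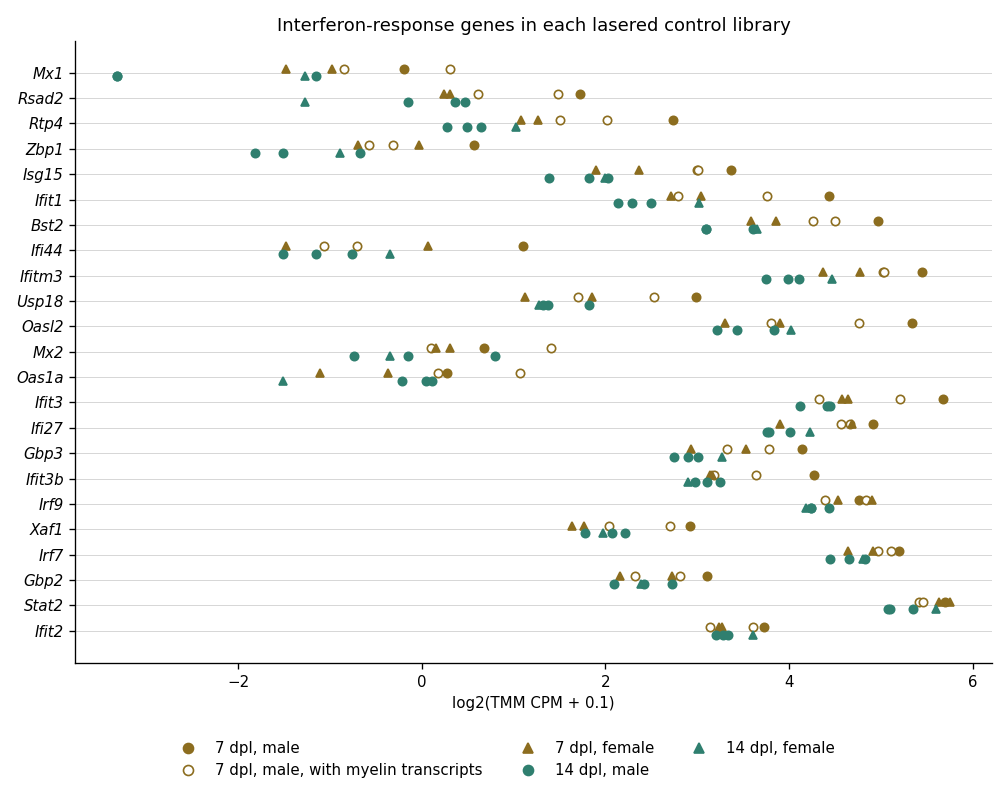
Log2 of TMM-scaled CPM plus 0.1 (x axis) of 23 interferon-response genes (rows), 1 point per control library, coloured by day, with circles for males, open where they carry myelin transcripts, and triangles for females. Male replicate 1 at 7 dpl is the highest library for Isg15 (10.2 CPM), Ifit1 (21.5 CPM) and Bst2 (31.2 CPM), and Rtp4 is the gene whose days do not overlap.

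Antigen-presentation genes were lower too, with B2m as the member that passed. All 16 were tested, each was lower at 14 dpl, 9 at an unadjusted p under 0.05, and the median log2 fold change was -0.45. Cd74, the invariant chain of MHC class II, held 5.42, 6.63, 9.90 and 4.94 CPM at 14 dpl and 11.5, 23.5, 11.1, 12.5 and 7.03 CPM at 7 dpl. Psmb8, a subunit of the immunoproteasome, held 4.73, 5.40, 4.95 and 3.63 CPM and 8.36, 9.02, 8.98, 4.66 and 4.53 CPM. Neither passed, and in Psmb8 the 7 dpl males alone lay above the 14 dpl libraries. The class I heavy chains H2-K1 and H2-D1, whose reads may be shared among paralogs, differed by -0.22 and -0.26 on the log2 scale. With the myelin-bearing libraries left out all 16 remained lower, 5 at an unadjusted p under 0.05, with a median of -0.50.

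Of 22 genes of activated microglia and macrophages 20 were tested, 16 were lower and 13 lower at an unadjusted p under 0.05, with Lyz2 passing and a median of -0.57. Without the myelin-bearing libraries the median was -0.37, with 6 of 19 lower at that p. Cd68, a lysosomal protein of phagocytes, held 0.997, 1.72, 2.33 and 1.0003 CPM at 14 dpl and 3.38, 2.06, 6.54, 4.40 and 3.65 CPM at 7 dpl. Tyrobp, the adaptor of Trem2, held 4.24 to 5.24 CPM and 5.95 to 10.003 CPM without overlap. Neither passed. Of the 15 homeostatic microglial genes 12 were lower but 2 at an unadjusted p under 0.05, and the median was -0.21. Without the myelin-bearing libraries 13 of 15 were lower and the median was -0.36, close to that of the activated genes. Csf1r, the receptor on which microglia depend, held 12.9 to 21.6 CPM at 14 dpl and 14.5 to 21.4 CPM at 7 dpl, a log2 difference of -0.16. Of 16 markers of other blood leukocytes 3 passed the filter on low counts, Itga4, Ptprc and Cd8a, with a median of -0.22. Their summed level was 27.7 to 35.2 CPM at 14 dpl and 23.6 to 40.8 CPM at 7 dpl. Itga4 alone reached 34.3 CPM at 14 dpl, so the sum mostly follows that gene there.

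Among complement genes 16 of 18 were tested, 13 were lower and 7 lower at an unadjusted p under 0.05, and the median was -0.40. C1qa held 15.6, 17.7, 16.5 and 10.3 CPM at 14 dpl and 22.1, 23.4, 33.4, 16.2 and 13.7 CPM at 7 dpl. C4b, of the classical pathway, held 16.4, 20.9, 28.6 and 18.9 CPM and 39.3, 28.7, 53.1, 33.5 and 23.5 CPM. C3, on which all pathways meet, held 1.99 to 3.96 CPM at 14 dpl and 3.99 to 10.9 CPM at 7 dpl, with its high value in myelin-bearing male replicate 2. None passed, with log2 differences of -0.63, -0.79 and -0.88, the last of which was -0.36 without the myelin-bearing libraries. The list's median was then also -0.36. Its mean log2 CPM was 2.49 to 2.56 in the 14 dpl males and 2.85 to 3.01 in the 7 dpl males. The 14 dpl female stood at 2.60, between the 2.76 and 2.56 of the 7 dpl females.

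Of 23 genes of gliosis and injury 21 were tested, 18 were lower and 11 lower at an unadjusted p under 0.05, with Edn2 passing and a median of -0.46. Gfap, the filament of reactive Müller glia and astrocytes, held 37.3, 50.7, 39.3 and 36.8 CPM at 14 dpl and 58.3, 65.8, 133, 40.5 and 55.5 CPM at 7 dpl. Male replicate 3, the library with the most myelin transcript, was the highest. Its log2 difference of -0.82 (adjusted p 0.199) became -0.42 without the myelin-bearing libraries, and the list's median -0.35. Serpina3n, a protease inhibitor of reactive astrocytes, held 11.5 to 21.3 CPM and 15.5 to 42.3 CPM. Fgf2, a survival factor for photoreceptors, held 19.9 to 29.0 CPM and 25.3 to 52.95 CPM. Timp1, a metalloproteinase inhibitor, lay at 0.561 to 1.05 CPM against 1.15 to 2.49 CPM with no overlap, a log2 difference of -1.20. None of these passed. Genes of homeostatic Müller glia had a median of 0.11, with 4 of 18 higher and 1 lower at an unadjusted p under 0.05, and one of 0.18 without the myelin-bearing libraries.

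**Figure D3:**
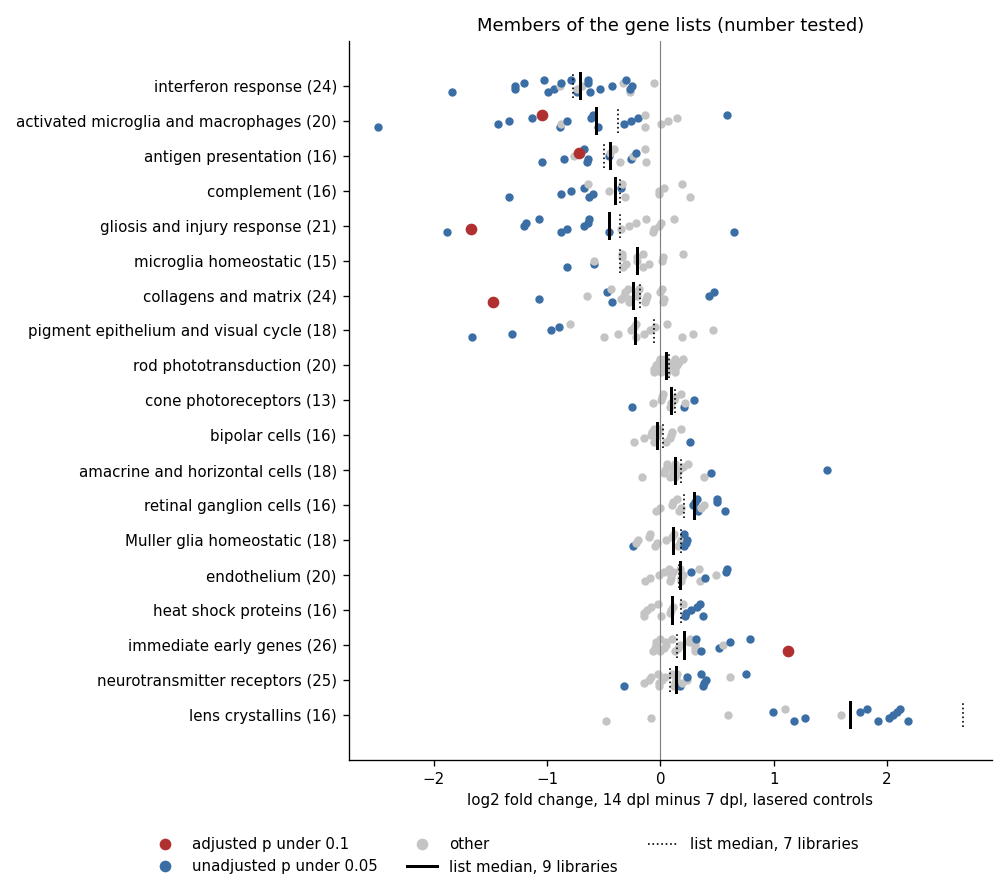
Log2 fold change at 14 against 7 dpl (x axis) of each tested gene of the gene lists (rows), 1 point per gene, in red for an adjusted p under 0.1 and blue for an unadjusted p under 0.05, with a solid bar at the list's median and a dotted one at its median without the myelin-bearing libraries. The interferon list has a median of -0.71 and the retinal ganglion cell list one of 0.30, against 0.0002 over all genes.

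In the tissues around the lesion, matrix and endothelial genes gave the following counts. Of 26 collagen and matrix genes 24 were tested and 19 were lower, 4 at an unadjusted p under 0.05 and Col1a1 past the adjusted one, with a median of -0.24. Leaving out the myelin-bearing libraries gave a median of -0.18 and 1 of 24 lower at an unadjusted p under 0.05. Of all genes 4.5% were lower at that p in the same fit. Col3a1 held 0.561 to 1.53 CPM at 14 dpl and 1.27 to 4.19 CPM at 7 dpl, a log2 difference of -1.07. Endothelial genes were higher in 17 of 20 tested, 4 at an unadjusted p under 0.05, with a median of 0.18. That count was 1 without the myelin-bearing libraries. The list's mean log2 CPM was 3.56 to 3.68 in the 14 dpl males, but 3.17 in the 14 dpl female, below the 3.24 to 3.39 of all 7 dpl libraries. Tek, the angiopoietin receptor, held 8.10, 6.26, 6.58 and 5.50 CPM at 14 dpl and 5.37, 4.45, 4.87, 5.23 and 4.87 CPM at 7 dpl. It was the endothelial gene without overlap and did not pass. Flt1, a VEGF receptor, held 66.3 to 93.9 CPM and 60.2 to 68.7 CPM. Genes of VEGF, angiopoietin and hypoxia had a median of 0.03, and one of 0.15 without the myelin-bearing libraries. Pigment epithelium genes were lower in 14 of 18, 4 at an unadjusted p under 0.05, with a median of -0.23 that was -0.05 without the myelin-bearing libraries.

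Retinal ganglion cell genes, those of the output neurons of the retina, were mostly higher at 14 dpl, in the male libraries. Of 16 tested 14 were higher, 7 at an unadjusted p under 0.05 and 0 past the adjusted one, with a median of 0.30. Without the myelin-bearing libraries 1 was higher at that p and the median was 0.21. Slc17a6, their vesicular glutamate transporter, held 75.7, 70.9, 52.3 and 27.4 CPM at 14 dpl and 34.3, 37.5, 33.8, 39.4 and 29.5 CPM at 7 dpl. Rbpms, an RNA-binding protein that marks them, held 44.7, 47.1, 40.4 and 32.4 CPM and 30.0, 31.5, 31.6, 37.6 and 35.6 CPM. For both, every 14 dpl male lay above every 7 dpl male, and the 14 dpl female lay below both 7 dpl females. The day effect in females minus that in males was -1.27 on the log2 scale for Slc17a6 and -0.70 for Rbpms, with adjusted p-values of 0.309 and 0.399, so neither passed. The photoreceptor lists were level, with medians of 0.05 for 20 rod genes, none of them at an unadjusted p under 0.05, and of 0.09 for 13 cone genes. Bipolar genes had a median of -0.03, and amacrine and horizontal cell genes one of 0.13, with 17 of 18 higher.

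Synaptic and stress-response genes gave scattered differences. Neurotransmitter receptors were higher in 7 of 25 and lower in 1 at an unadjusted p under 0.05, with a median of 0.13. Gabrg1, a GABA-A receptor subunit, held 8.41, 5.65, 7.17 and 8.003 CPM at 14 dpl and 4.21, 4.57, 3.89, 5.69 and 3.58 CPM at 7 dpl. Glrb, the glycine receptor beta subunit, held 52.3 to 68.7 CPM and 40.9 to 51.6 CPM without overlap. Immediate early genes were higher in 20 of 26, with Klf4 passing and 6 at an unadjusted p under 0.05, or 2 without the myelin-bearing libraries. Fos held 61.8 to 73.8 CPM at 14 dpl and 57.8 to 73.1 CPM at 7 dpl in all but female replicate 3, which held 20.5 CPM. Heat shock genes were higher in 6 of 16 at an unadjusted p under 0.05, among them Hsp90aa1 at 1741 to 2233 CPM against 1448 to 1842 CPM. Ribosomal protein genes had a median of 0.04 and mitochondrial mRNAs one of -0.13.

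Transcripts of lens, a tissue outside the retina, differed between the days as well. Cryaa held 66.6, 14.7, 70.3 and 114 CPM at 14 dpl and 23.3, 32.1, 38.6, 4.14 and 7.98 CPM at 7 dpl. Of 20 lens genes 16 were tested and 11 were higher at an unadjusted p under 0.05, with a median of 1.68. The median was 0.54 without the 14 dpl female and 2.67 without the myelin-bearing libraries. Their sum was 97.7 to 453 CPM at 14 dpl and 78.9 to 206 CPM at 7 dpl. Sums for cornea, iris, ciliary body and muscle were 44.6 to 93.6 and 59.5 to 156 CPM, and for pigment epithelium 470 to 806 and 372 to 1199 CPM. Blood genes summed to 63.1 to 104 and 76.6 to 115 CPM. The part of these tissues in the differences above was not tested.

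Restricting the comparison to males, 3 against 3 libraries, gave more calls. Of 16153 genes 253 passed an adjusted p under 0.1 (1.57%), 130 higher (0.805%) and 123 lower (0.761%), and 55 were DEGs (0.34%). Of 21 interferon genes tested all were lower and 8 passed, with a median of -0.84. Of 21 gliosis genes 19 were lower and 7 passed as lower, with a median of -0.55. All 16 retinal ganglion cell genes were higher and 6 passed, with a median of 0.50. Slc17a6 rose by 0.92 on the log2 scale with an adjusted p of 0.005, and Rbpms rose by 0.51 with an adjusted p of 0.033. Complement genes were lower in 13 of 16 with 4 passing, and antigen-presentation genes in 15 of 15 with 3 passing. Activated microglial genes were lower in 14 of 18 with 3 passing. The myelin-bearing libraries are 2 of the 3 males at 7 dpl. In this fit 16 of 17 myelin genes were lower and 6 passed as lower.

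A test of whether the day effect differed between sexes in the controls found 1 gene of 17984 (0.00556%). This was Gm28437, an unprocessed pseudogene, at 527 CPM in the 14 dpl female against 103 to 177 CPM in the other libraries, with an adjusted p of 0.00283. An unadjusted p under 0.05 was reached by 1533 genes (8.52%), and DESeq2 called 16 DEGs. Of the columns compared 1 holds a female control at 14 dpl, so its value sets this contrast. With the second run of columns, which holds 2 further female controls of 14 dpl, and run as a covariate, the day comparison gave 5 DEGs and 9 genes passed.

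Control libraries from 3 dpl place the 2 later days, on a scale normalised together and without adjustment for sex. There were 5 of them, 3 female and 2 male, against 1 female and 3 male libraries at 14 dpl. Median list levels, as mean log2 CPM of the members, were 3.15, 2.97 and 2.72 at 3, 7 and 14 dpl for interferon genes. For activated microglia they were 3.84, 3.78 and 3.48, for antigen presentation 3.34, 3.28 and 2.93, for complement 2.84, 2.81 and 2.52, and for gliosis 3.90, 3.86 and 3.50. In each of these the median was lowest at 14 dpl. Retinal ganglion cell genes stood at 5.50, 5.32 and 5.67. Edn2 spanned 15.7 to 65.9 CPM at 3 dpl, overlapping its 7 dpl range, and Dio2 spanned 40.6 to 60.0 CPM, below its 14 dpl libraries. Col1a1 spanned 1.34 to 16.0 CPM and Lyz2 7.43 to 55.0 CPM at 3 dpl. These 3 dpl values are given as levels, without a test.

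**Figure D4:**
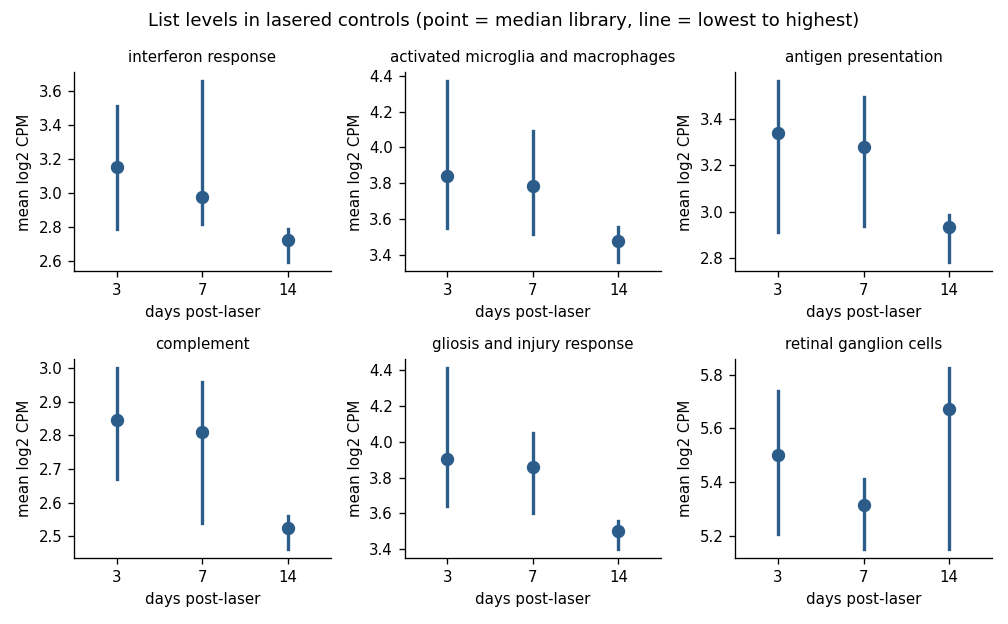
Mean log2 CPM of the members of 6 gene lists (y axis of each panel, not starting at 0) by day post-laser (x axis) in control libraries, with a point at the median library and a line from the lowest to the highest, all days normalised together. The interferon median goes from 3.15 at 3 dpl to 2.97 at 7 dpl and 2.72 at 14 dpl.

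In SCFA-treated retinas, 12 libraries at the same days named SCFA in their titles, 0 of 16697 genes passed an adjusted p under 0.1 in edgeR, 1890 had an unadjusted p under 0.05 (11.3%; 4.1% higher and 7.22% lower) and DESeq2 called 12 DEGs. Of the 13 genes that passed in controls 12 were tested there, 7 had the same direction and 3 an unadjusted p under 0.05. The log2 difference of Edn2 was -0.10 in treated retinas, with means of 17.2 ± 6.99 CPM at 7 dpl and 16.1 ± 3.66 CPM at 14 dpl (SD, n = 6 each). That of Dio2 was -0.22, with means of 58.6 ± 34.8 and 48.5 ± 25.4 CPM (SD, n = 6 each). Those of Lyz2 and B2m were -0.73 and -0.47. The difference between the treated and control day effects passed for 0 of 17514 genes in edgeR, with 1683 at an unadjusted p under 0.05 (9.61%) and 3 DEGs in DESeq2. Among these by unadjusted p were Kcnd2 (p 0.00028), Edn2 (p 0.00086) and Scn1a (p 0.0072), with interaction terms of -0.99, 1.55 and -0.71. They were named because they passed in controls, and the same control libraries enter this term. Their p-values are therefore not independent of that choice and do not show a difference by treatment.

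By list, treated retinas had a median log2 difference of -0.34 for interferon genes, with 19 of 22 lower and 8 lower at an unadjusted p under 0.05. The medians were -0.33 for activated microglia, -0.45 for antigen presentation, -0.30 for complement and -0.23 for gliosis. Lens genes went the other way from controls, with a median of -1.94. Homeostatic Müller glia genes were lower in 18 of 18, with a median of -0.39. Mitochondrial transcripts took 6.88 to 14.8% of counts in the treated 7 dpl libraries, above the control range at its top, and mitochondrial mRNAs had a median of -0.87. Treated male replicate 2 at 7 dpl also carried myelin transcripts, with Mbp at 336 CPM.

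**Figure D5:**
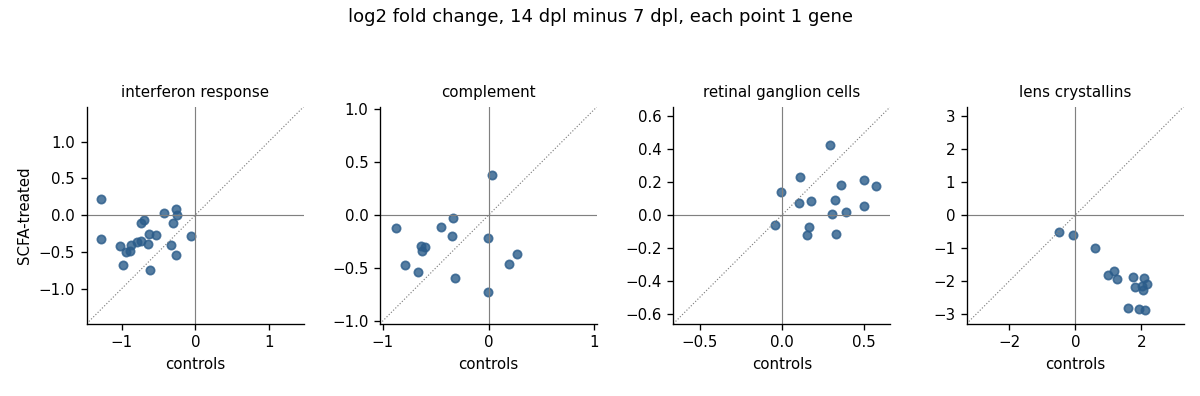
Log2 fold change at 14 against 7 dpl in controls (x axis) and in SCFA-treated retinas (y axis) for 4 gene lists, 1 point per gene, with a dotted line where both are equal. Interferon genes have medians of -0.71 in controls and -0.34 in treated retinas, and lens genes medians of 1.68 and -1.94.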

How the data were processed

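The deposited file holds gene counts, whole numbers per Ensembl gene and library. Per the labels the authors used mm10 and DESeq2. Their aligner, annotation and strand setting are not given in the sources used here. The table has 54532 genes, of which 54495 were named from GENCODE M21. Libraries were grouped by day, treatment and sex from their titles, although a separate treatment label of the SCFA-treated samples reads control, and the members and gene lists were chosen with earlier results of these data known.

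Counts were filtered with filterByExpr, scaled by TMM and fitted with edgeR 4.0.16 (R 4.3.3) by its quasi-likelihood test with sex as covariate and Benjamini-Hochberg adjustment over all genes tested. Genes passed at an adjusted p under 0.1, and DEGs also had a log2 fold change beyond 1. The genes named are the 12 per direction of smallest p with an established symbol and no overlap between the days, outside the myelin list, and from each gene list those that passed, up to 4, or otherwise the 1 or 2 of highest count. The other genes that passed, and further list members such as those of the interferon list, were named after their values were seen. DESeq2 1.42.0 was an alternative. On simulated data for the control comparison, over 16761 genes, 90% of genes changed by 1 on the log2 scale and 100% of those changed by 2 were recovered, with 23 false calls. The simulation held no sex effect and no library that stood apart, and it changed only genes above a minimum mean count. Its figures therefore do not give the power in the real libraries. Totals of 14826957 to 19483849 counts set the counting precision, so genes near 3 counts are given as values without a fold. The 7 pairs of control libraries of one day and sex differed beyond counting noise, with a chi-square per gene of at least 5.33. Some genes are not reported here by name, though they count in their lists.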

Additional observations from a re-analysis of the deposited data

Results flagged for a closer look

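Within each day, a library was flagged as far from the others of its day by the gap to its nearest neighbour divided by the range. No library was removed by this rule. Of 256 such ratios 27 were over the 95% limit (10.5%), where chance gives about 1 in 20 for independent ratios. These ratios share libraries, and many of the genes were chosen by their values in them, so the excess cannot be read. No cause was tested.

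The female library at 14 dpl held 12 of the 27. It was highest for Cd59a, a complement inhibitor (ratio 0.922, at 151 CPM against 71.5 CPM in the next), Otx2 (0.94), Pdc (0.836), Sgk1 (0.848), Mdm2 (0.973), Itga4 (0.88), mt-Cytb (0.855) and Rab32 (0.881). It was lowest for Srxn1 (0.875), Srebf2 (0.902), the amacrine and horizontal cell list (0.902) and the homeostatic microglia list (0.889).

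At 7 dpl, female replicate 3 was highest for Abhd14a (0.814) and mt-Co1 (0.781) and lowest for Csf1r (0.915), Slc17a7 (0.871) and the immediate early gene list (0.775). Female replicate 1 was highest for Slc38a8 (0.718), the rod list (0.711) and the cone list (0.856). Male replicate 3, which carries myelin transcripts, was highest for Mbp (0.725), Mobp (0.725) and Bcas1 (0.715), and male replicate 1 was lowest for Nap1l2 (0.714).

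At 14 dpl, male replicate 3 was highest for Lyz2 (0.846) and lowest for Mobp (0.974), where all libraries hold a few counts. Male replicate 2 was lowest for the list of SCFA receptors and transporters (0.865).

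The day effect of Gm28437 was 2.02 higher on the log2 scale in females than in males, on the value of the single female library compared at 14 dpl. In the left-out library labelled female control replicate 2 at 7 dpl, the Y-linked genes Ddx3y, Eif2s3y, Kdm5d and Uty had 308, 284, 81 and 111 counts, against 0 in the 21 other female libraries.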

How the results depend on the processing

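In controls the 7 DEGs and 13 genes that passed became 23 and 173 with DESeq2, 121 and 569 with no filter on low counts, 3 and 7 with at least 10 counts in every library, 4 DEGs with a robust fit, 13 DEGs with no fold threshold, and 0 and 1 at an adjusted p under 0.05. They became 2 and 3 without both myelin-bearing libraries, 0 and 1 with the myelin level as a covariate, 55 and 253 in males, 0 and 0 without sex in the model, with the left-out library labelled female, and in one fit of the first 31 columns. With both runs of columns they were 5 and 9. Leaving out each library gave 0 to 33 DEGs and 1 to 145 genes passed. The counts were 0 and 1 without male replicate 1 or 2 at 14 dpl or male replicate 3 at 7 dpl, 1 and 2 without male replicate 2 at 7 dpl, and 2 and 7 without male replicate 3 at 14 dpl. They were 22 and 46 without male replicate 1 at 7 dpl, 13 and 34 without female replicate 3 and 33 and 145 without female replicate 1 at 7 dpl, and 32 and 116 without the 14 dpl female. Causes were not tested.

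In treated retinas 0 DEGs became 12 with DESeq2, 153 unfiltered and 0 to 11 leaving out each library, 11 without male replicate 2 at 7 dpl, which carries myelin transcripts. The day by treatment term went from 0 to 3 with DESeq2 and 103 unfiltered, and stayed at 0 leaving out each library. The day by sex term went from 1 to 16 with DESeq2, 101 unfiltered, 2 with a robust fit and 1 to 24 leaving out each library, with 24 without female replicate 1 at 7 dpl and 10 without male replicate 2 at 14 dpl. It was not run without the female library at 14 dpl, which it needs.

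Replicate numbers did not pair the samples: deviations of same-numbered males correlated at -0.041, 0.077 and -0.034. With a replicate block there were 7 DEGs and 12 genes passed in controls, 13 DEGs in treated retinas and 6 for day by sex.

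Of 1862 values of 86 genes followed under these settings, 1547 kept direction and side of the threshold, 185 newly passed, 130 no longer passed and 0 reversed. Only the 13 genes that had passed could stop passing, so the 130 are all theirs. Col1a1 did so in 15 of 21 settings, Scn1a in 13 of 22 and Dio2 in 4 of 22. The interferon median lay between -0.88 and -0.44 over the 22 settings, the gliosis median between -0.55 and -0.32 and that of retinal ganglion cells between 0.01 and 0.50. The interferon median of -0.44 came without male replicate 1 at 7 dpl. Pools of 2 retinas, 1 female at 14 dpl and no unlasered retina limit what the depth can show.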

Other observations

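Other gene lists were near the centre of all genes. Cholesterol synthesis genes were higher in 19 of 21, 2 at an unadjusted p under 0.05, with a median log2 fold change of 0.13. Circadian clock genes were higher in 17 of 22, with 2 higher and 2 lower at that p and a median of 0.08. Genes of photoreceptors that follow light and time of day had a median of -0.01 over 9 genes, glucocorticoid targets and metallothioneins one of 0.10 over 14, and antioxidant genes under NRF2 one of 0.01 over 14.

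Targets of p53 had a median of -0.03 over 13 genes and cell division genes one of -0.03, with 16 of 22 tested. Nuclear genes of oxidative phosphorylation had a median of 0.05 over 33 genes. Ribbon synapse and vesicle release genes had a median of 0.02 over 20, although Snap25, a protein of the vesicle fusion complex, held 963 to 1227 CPM at 14 dpl and 823 to 941 CPM at 7 dpl without overlap. Pericyte and smooth muscle genes had a median of -0.01 over 11, and astrocyte genes of the optic nerve head one of 0.01 over 11. Of 11 receptors and transporters of SCFA, 6 were tested, with a median of -0.08.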
